A study of Mus musculus with 2 samples.

Results

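The autophagy genes described here are 40 mouse genes whose products build the autophagosome, the closed membrane sac that takes up cytoplasm and delivers it to the lysosome. They were taken by symbol from a list of named genes, and all 40 matched a protein-coding gene among the 21938 coding genes of GENCODE M21 on chromosomes 1 to 19, X and Y. By role they comprise 18 initiation genes, 16 lipidation genes and 6 cargo receptor genes. The initiation genes encode the ULK kinase complex, the lipid kinase complex around Pik3c3 with its regulators, and the proteins that expand the membrane (Atg9a, the Atg2 pair and the WIPI family). The lipidation genes encode the conjugation enzymes, the Atg4 proteases and the LC3 and GABARAP proteins that are attached to membrane.

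H3K79me2, dimethylation of a lysine in the core of histone H3, was mapped by chromatin immunoprecipitation and sequencing in macrophages grown from bone marrow of C57BL/6J mice and left without stimulation. The samples were 2 biological replicates in 1 group, each started from 10 ng of DNA, with 1 control experiment named for both. Age and sex are not recorded, a single donor identifier is attached to both samples, and separate animals or cultures are not stated, so the spread between the replicates may be technical. No treatment, genotype or time point is compared, and no test between groups of samples can be made.

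In starvation or stress the ULK kinase complex is switched on and activates the lipid kinase Pik3c3, which marks the forming membrane with phosphatidylinositol 3-phosphate. WIPI proteins read that lipid and bring in the conjugation machinery, which joins LC3 and GABARAP proteins to the membrane; cargo receptors hold LC3 on one side and ubiquitin-tagged cargo on the other. In macrophages autophagy clears intracellular bacteria, and part of the same machinery attaches LC3 to phagosomes. H3K79me2 is placed by the methyltransferase Dot1l as RNA polymerase II moves away from a promoter and is known to lie over the 5′ part of transcribed genes.

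Sequences are shown for the promoters of 7 genes on which the account below turns, to set the DNA at the gene start beside the peaks that begin downstream of it. Each is the 250 bases before a RefSeq transcription start on GRCm38.p6 (mm10), 5′ to 3′ on the strand of the gene, with every CG dinucleotide in capitals. Sqstm1 (chr11:50210821-50211070, minus strand), Gabarap (chr11:69991120-69991369, plus strand) and Map1lc3b (chr8:121590188-121590437, plus strand) are cargo and membrane-tag genes with high peaks. Atg3 (chr16:45158579-45158828, plus strand) holds a motif described with the promoters. Ulk2 (chr11:61855093-61855342, minus strand) and Ulk1 (chr5:110810082-110810331, minus strand) are paralogs, of which only Ulk2 lay under the replicated peaks. Rubcn has an inner start (chr16:32868367-32868616, minus strand) with a peak after it and an outer start (chr16:32877730-32877979, minus strand) without one.
Sqstm1: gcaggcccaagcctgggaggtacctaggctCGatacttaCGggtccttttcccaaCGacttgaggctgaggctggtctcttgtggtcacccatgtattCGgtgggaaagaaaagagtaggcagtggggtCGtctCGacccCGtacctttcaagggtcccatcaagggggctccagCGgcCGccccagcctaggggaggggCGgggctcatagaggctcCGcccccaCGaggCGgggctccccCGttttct
Gabarap: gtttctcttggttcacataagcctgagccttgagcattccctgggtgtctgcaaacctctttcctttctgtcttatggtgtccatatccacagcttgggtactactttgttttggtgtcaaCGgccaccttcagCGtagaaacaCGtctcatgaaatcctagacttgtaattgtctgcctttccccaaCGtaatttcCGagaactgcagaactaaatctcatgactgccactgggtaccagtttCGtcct
Map1lc3b: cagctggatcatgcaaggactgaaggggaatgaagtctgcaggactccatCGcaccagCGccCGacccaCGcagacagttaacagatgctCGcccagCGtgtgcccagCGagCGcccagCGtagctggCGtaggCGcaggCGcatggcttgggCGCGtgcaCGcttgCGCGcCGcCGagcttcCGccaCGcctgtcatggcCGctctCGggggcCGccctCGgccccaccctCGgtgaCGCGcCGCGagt
Atg3: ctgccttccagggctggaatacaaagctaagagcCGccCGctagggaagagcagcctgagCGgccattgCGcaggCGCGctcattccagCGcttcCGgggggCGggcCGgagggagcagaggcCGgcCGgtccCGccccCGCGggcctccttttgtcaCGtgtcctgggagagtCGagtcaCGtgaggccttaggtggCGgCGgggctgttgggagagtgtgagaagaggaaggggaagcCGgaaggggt
Ulk2: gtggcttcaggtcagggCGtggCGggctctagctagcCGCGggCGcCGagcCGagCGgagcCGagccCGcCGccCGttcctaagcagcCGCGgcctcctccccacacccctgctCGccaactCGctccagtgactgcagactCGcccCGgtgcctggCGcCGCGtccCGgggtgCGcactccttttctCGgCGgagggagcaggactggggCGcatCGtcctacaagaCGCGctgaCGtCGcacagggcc
Ulk1: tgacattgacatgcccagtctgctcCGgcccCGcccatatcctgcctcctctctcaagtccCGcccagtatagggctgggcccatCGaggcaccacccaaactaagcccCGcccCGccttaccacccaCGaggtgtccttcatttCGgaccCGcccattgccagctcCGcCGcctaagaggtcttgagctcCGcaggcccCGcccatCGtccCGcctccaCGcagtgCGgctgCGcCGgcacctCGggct
Rubcn, inner start: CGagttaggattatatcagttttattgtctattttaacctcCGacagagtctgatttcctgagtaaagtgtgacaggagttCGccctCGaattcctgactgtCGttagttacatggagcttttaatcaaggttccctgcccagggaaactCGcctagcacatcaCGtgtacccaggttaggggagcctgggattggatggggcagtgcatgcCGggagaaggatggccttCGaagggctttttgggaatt
Rubcn, outer start: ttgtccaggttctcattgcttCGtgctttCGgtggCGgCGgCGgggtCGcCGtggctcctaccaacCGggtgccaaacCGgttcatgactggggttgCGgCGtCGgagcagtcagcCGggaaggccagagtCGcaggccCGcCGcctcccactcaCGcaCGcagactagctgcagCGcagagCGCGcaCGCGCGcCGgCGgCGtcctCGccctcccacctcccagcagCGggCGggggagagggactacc

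The authors' deposited data are 4 peak lists on mm10. They carry no reads, and how deeply the libraries were sequenced is unknown. The list of replicate 1 held 22979 peaks over 63.5 Mb and that of replicate 2 held 31577 peaks over 114 Mb. A pooled list held 26838 peaks over 106 Mb, and a list made from both replicates, the replicated list, held 15559 peaks over 93.2 Mb. A gene is called marked in a list where peaks cover a minimum of 200 bp between its outermost annotated 5′ end and a point 3 kb downstream, or the gene's end if nearer. Unmarked means that no such peak was called, not that the modification was absent. Of 7 macrophage marker genes, 6 were marked in the replicated list, beside 30.3% of all coding genes. Csf1r, the receptor gene for the growth factor of these cells, was marked at another of its annotated starts. Cd3e, Ly6g, Col1a1, Alb, Epcam and Pecam1, marker genes of other cell types, had no base under any list. The same held for 60.1% of coding genes. The markers were chosen with earlier results of these data known, so their values are descriptions.

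In the replicated list 28 of the 40 autophagy genes (70.0%) were marked, against 30.3% of all coding genes. The initiation genes stood at 12 of 18 (66.7%), the lipidation genes at 12 of 16 (75.0%) and the cargo receptor genes at 4 of 6 (66.7%), shares that differ by less than 2 of the 18 initiation genes. In the list of replicate 1 the count was 24 (60.0%, with 27.2% of coding genes marked), and in that of replicate 2 it was 34 (85.0%, with 35.6% of coding genes). The pooled list marked 33 (82.5%, with 34.3% of coding genes). All 24 genes marked in replicate 1 were also marked in replicate 2, as were 5962 of the 5975 coding genes marked in replicate 1. The median autophagy gene had 17.8% of its length covered, the median coding gene 0. Leaving out replicate 2 lowered the former to 7.22%, leaving out replicate 1 raised it to 25.7%, and keeping only peaks at or above the median fold lowered it to 11.8%. The autophagy genes are longer, with a median of 37598 bp against 17425 bp over all coding genes.

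**Figure D1:**
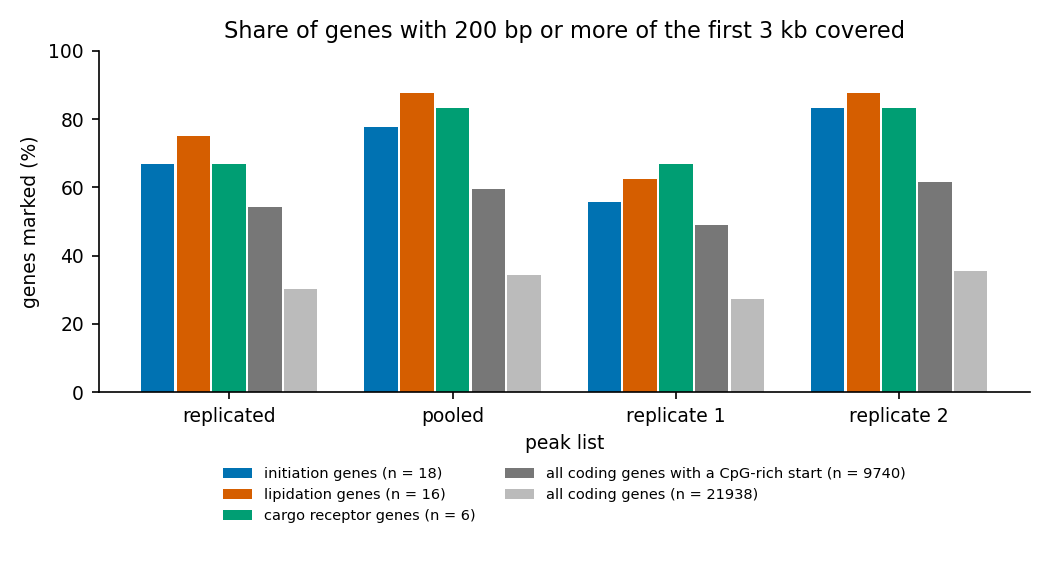
Percent of genes with a minimum of 200 bp covered within the first 3 kb (vertical axis), by peak list (horizontal axis), for the 18 initiation, 16 lipidation and 6 cargo receptor genes, for the 9740 coding genes with a CpG-rich start and for all 21938 coding genes. In the replicated list the bars of the 3 autophagy groups stand at 66.7%, 75.0% and 66.7% and those of the coding genes at 54.1% and 30.3%.

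Among genes with a CpG-rich start, 21 of 30 autophagy genes were marked (70.0%), against 54.1% of the 9740 coding genes with such a start. A start is called CpG-rich where the 500 bp on each side have an observed to expected CpG of 0.6 or more and a GC content of 50% or more. This holds for 75.0% of the autophagy genes and for 44.4% of coding genes. Of the 10 autophagy genes without a CpG-rich start 7 were marked, beside 11.4% of such coding genes. These 10 include Atg14, Wipi2 and Atg4b, whose inner annotated starts are described with each gene. CpG richness was judged at the outermost 5′ end alone. In the 250 bases before the inner RefSeq start Atg4b had 43 CG, Wipi2 35 and Atg14 11, against a median of 10.0 over all promoters. The class thus does not describe the promoter at every start that a peak follows.

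**Figure D2:**
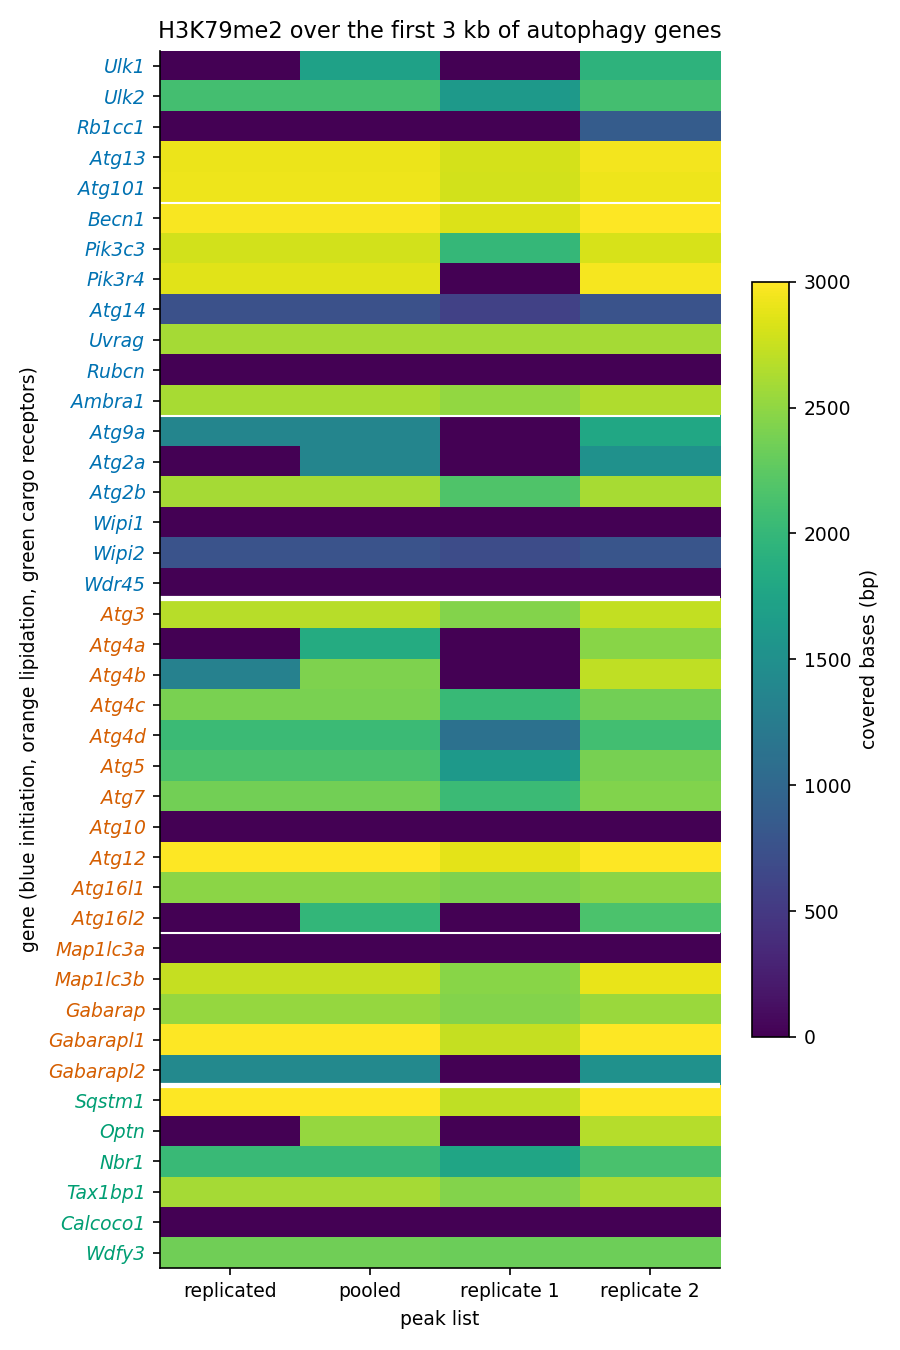
Covered bases of the first 3 kb (colour, 0 to 3000 bp) for each of the 40 autophagy genes (rows, ordered by role) in the 4 peak lists (columns). Replicate 1 is at 0 in 16 rows, 10 of which carry at least 871 bp in replicate 2, and Wipi1, Rubcn, Wdr45, Atg10, Map1lc3a and Calcoco1 are at 0 in all 4 columns.

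Of the 5 genes of the ULK complex, Ulk2, Atg13 and Atg101 were marked in the replicated list, and all 5 were marked in replicate 2. Ulk1, the kinase that starts autophagy (chromosome 5, 110784488 to 110810097, minus strand), had 0 of its first 3 kb covered in replicate 1 and 1941 bp in replicate 2. The pooled list covered 1712 bp of it and the replicated list 0. Its paralog Ulk2 (chromosome 11, 61775649 to 61855073, minus strand) had 1612 bp covered in replicate 1, 2108 bp in replicate 2 and 2104 bp in the replicated list. The paralogs thus differed in replicate 1 and lay close in replicate 2, where the highest fold over the control in the window was 6.74 at Ulk1 and 10.1 at Ulk2. In the replicated list 4.99% of Ulk2 was covered, as a single block from 896 to 4860 bp into a gene of 79425 bp. Over the gene replicate 1 covered 1612 bp and replicate 2 covered 9062 bp, the latter in 4 blocks out to 13834 bp.

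Atg13, the adaptor that ties the kinase to the complex, had 2812 bp covered in replicate 1 and 2953 bp in replicate 2. Its partner Atg101, a short gene of 6674 bp, had 2792 bp in replicate 1 and 2927 bp in replicate 2, and 62.5% of its length lay under the replicated list. Both genes were covered nearly alike in the replicates over this window. Rb1cc1, the scaffold of the complex also called FIP200 (chromosome 1, 6206197 to 6276648, plus strand), was unmarked at its outermost start, with 0 bp in replicate 1 and 871 bp in replicate 2. The transcript in the GENCODE basic set begins 8448 bp further in, and from there 2491 bp were covered in replicate 1, 2545 bp in replicate 2 and 2537 bp in the replicated list. Its blocks ran from 4178 to 8324 bp and from 8911 to 22615 bp, the latter with a fold of 18.3. The call at Rb1cc1 thus turned with the start chosen, whereas Ulk1 had no base under the replicated list anywhere in the gene.

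The lipid kinase complex and its regulators were marked in 6 of 7 genes at the outermost start and in 7 of 7 at any annotated start, the latter against 32.9% of coding genes. Over all 40 autophagy genes the count at any start was 30 (75.0%). Becn1, the scaffold Beclin 1 of the complex (chromosome 11, 101285952 to 101302286, minus strand), had 2843 bp covered in replicate 1 and 3000 bp in replicate 2. Its peak had a fold of 20.6 in the replicated list, above 80.4% of the 6726 coding genes with a peak in the window. The catalytic subunit gene Pik3c3 had 1998 bp covered in replicate 1 and 2814 bp in replicate 2. Pik3r4, the regulatory kinase subunit Vps15, had 0 bp in replicate 1 and 2960 bp in replicate 2. Its replicated block of 3960 bp had a fold of 4.44, and of these subunits only Pik3r4 had no peak in the list of replicate 1.

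Atg14 directs the complex to the endoplasmic reticulum and Uvrag directs it to endosomes. Atg14 was covered from 2254 bp onward, with 576 bp in replicate 1, 771 bp in replicate 2 and 746 bp in the replicated list, the fewest covered bases in the first 3 kb of any marked autophagy gene in that list. From its second basic-set start, 2215 bp further in, 2961 bp lay under the replicated list. Uvrag (chromosome 7, 98885021 to 99141141, minus strand) had 121804 bp or 47.6% of its length under the replicated list, the most bases of the 40 genes there, in 10 blocks. Replicate 1 covered 46935 bp of it and replicate 2 covered 195207 bp, although within the first 3 kb they covered 2580 and 2592 bp. In the list of replicate 1 Wdfy3, with 90104 bp, had more. The fold was 28.8 in the first block, 24.5 in the second, which is 31892 bp long, and 3.60 in the last, which ends 229783 bp into the gene. Between them it did not fall steadily, with 5.45 to 12.6, the latter in a block of 25818 bp that begins 97744 bp in. Along Uvrag the replicates therefore matched near the start and parted further in. Ambra1, a Beclin 1 partner, also had its highest fold in its first block, 20.1, and its lowest in its last, 3.77. The replicated list covered 38927 bp of Ambra1, with 27083 bp in replicate 1 and 53015 bp in replicate 2.

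Rubcn encodes Rubicon, which restrains the Uvrag form of the complex and is needed for LC3-associated phagocytosis. From its outermost start (chromosome 16, 32821703 to 32877766, minus strand) it had 0 bp covered in all 4 lists. The next annotated start, 9400 bp further in, had 1952 bp covered in replicate 1, 2821 bp in replicate 2 and 2820 bp in the replicated list. The 590 covered bp just upstream of the outer start lie in Fyttd1, a marked gene on the other strand that begins 266 bp inside Rubcn. The outer promoter printed above has 30 CG and the inner one 9, so within this gene the peak lay after the promoter with fewer CG.

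Of the 6 membrane-expansion genes 3 were marked in the replicated list and 2 in replicate 1. Atg9a, the transmembrane lipid scramblase carried on small vesicles, had 0 bp covered in replicate 1 and 1784 bp in replicate 2. The lipid-transfer paralogs Atg2a and Atg2b differed: Atg2a had 0 bp in replicate 1 and 1515 bp in replicate 2, Atg2b had 2170 and 2605 bp. In the replicated list Atg2a was at 0 and Atg2b at 2590 bp. Wipi2, the family member that recruits Atg16l1, had 695 bp in replicate 1 and 787 bp in replicate 2. Its outermost start belongs to a retained-intron transcript, and from the coding start 1844 bp further in 2617 bp lay under the replicated list. Wipi1 had no base in any list. Wdr45, the X-linked member also called WIPI4, had none in the 3 kb after its outermost start, which belongs to a processed transcript. From its first basic-set coding start, 7884 bp further in, 0 bp were covered in replicate 1, 1493 bp in replicate 2, 1428 bp in the pooled list and none in the replicated one. These bases all lie within the stretch it shares with the coding gene Gm45208.

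The conjugation enzymes and proteases were marked in 8 of 11 genes in the replicated list, 7 in replicate 1 and 10 in replicate 2. Atg7, the enzyme that activates both ubiquitin-like proteins, had 2041 bp covered in replicate 1 and 2434 bp in replicate 2. Atg3, which passes LC3 to lipid (chromosome 16, 45158785 to 45188538, plus strand), had 2441 and 2729 bp, and its peak reached a fold of 16.1. Atg10, which passes Atg12 to Atg5, had no base under any list over its 288613 bp. Of the 3 enzymes that carry the ubiquitin-like proteins, the E1 and the LC3 E2 were thus marked in both replicates and the Atg12 E2 in neither.

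Atg12, Atg5 and Atg16l1 form the complex that sets where LC3 is attached. Atg12 was covered over its entire first 3 kb in replicate 2 and over 2877 bp in replicate 1, with 56.9% of the gene under the replicated list and a fold of 20.9. Atg5 had 1615 bp in replicate 1 and 2385 bp in replicate 2, at a fold of 11.4. Atg16l1 had 2420 and 2483 bp, at a fold of 19.2. All 3 partners were marked in both replicates. Atg16l2, a paralog of Atg16l1, had 0 bp in replicate 1 and 2155 bp in replicate 2 and was unmarked in the replicated list.

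The 4 Atg4 proteases cut LC3 and GABARAP proteins before attachment and release them from membrane afterwards. Atg4c was marked in both replicates, with 2021 and 2363 bp, and so was Atg4d, with 1119 and 2090 bp. Atg4b, the protease most active on LC3, had 0 bp in replicate 1 and 2712 bp in replicate 2 at its outermost start, where the covered 1317 bp of the replicated list all lie inside the marked neighbour Thap4 as well. From its basic-set start, 3405 bp further in, replicate 1 covered 2137 bp and replicate 2 covered 2613 bp. Its fold was 4.27 in the block before that start and 14.3 in the block after it. Atg4a, on the X chromosome, had 0 bp in replicate 1 and 2463 bp in replicate 2, and none in the replicated list. Both X-linked autophagy genes, Atg4a and Wdr45, were thus unmarked in that list.

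Of the 5 genes for the membrane-attached tags, Map1lc3b, Gabarap, Gabarapl1 and Gabarapl2 were marked and Map1lc3a was not. Gabarap (chromosome 11, 69991143 to 69994951, plus strand) had 87.1% of its 3809 bp under the replicated list, the highest share of the 40 genes. Replicate 1 covered 2439 bp of its first 3 kb and replicate 2 covered 2543 bp, and its fold of 26.1 was above that of 92.0% of coding genes with a peak. This was the shortest marked gene and the promoter with the fewest CG among those printed, 6. Map1lc3b, the standard autophagosome marker LC3B (chromosome 8, 121590361 to 121598760, plus strand), had 2470 and 2899 bp and a fold of 24.5. It lies whole inside the annotated coding gene Gm20388 on the same strand, so its peak is counted for both.

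Gabarapl1 had 2738 bp covered in replicate 1 and 3000 bp in replicate 2, at a fold of 9.05. Gabarapl2 had 0 bp in replicate 1 and 1521 bp in replicate 2, at a fold of 6.62 in the replicated list. Map1lc3a, which encodes LC3A (chromosome 2, 155276297 to 155278073, plus strand), had no base under any list over its 1777 bp, although its start is CpG-rich. The LC3 paralogs Map1lc3a and Map1lc3b were thus at opposite ends. By fold the GABARAP paralogs ranked in the order of Gabarap, Gabarapl1 and Gabarapl2. By covered bases of the first 3 kb in the replicated list Gabarapl1 came first, with 3000 bp. Gabarap had 2527 bp there and Gabarapl2 1407 bp.

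The cargo receptor genes split into 4 with tall peaks and 2 without a replicated peak. Sqstm1, the ubiquitin-binding receptor p62 (chromosome 11, 50199366 to 50210827, minus strand), had 2711 bp of its first 3 kb covered in replicate 1, from 289 bp onward, and 3000 bp in replicate 2, from the first base. Its fold was 20.0 in replicate 1, 30.6 in replicate 2 and 27.6 in the replicated list, above 94.2% of coding genes with a peak. The replicated block reached 884 bp upstream, past the start of Mgat4b, a marked gene that begins 63 bp away on the other strand, and peaks do not tell which gene such bases belong to. Nbr1, a relative of Sqstm1 that also binds ubiquitin, had 1768 and 2138 bp, beginning 963 bp downstream of its start, and another coding gene with a peak begins 194 bp away on the other strand. Tax1bp1, which carries bacteria and protein aggregates to autophagy, had 2446 and 2620 bp at a fold of 26.1.

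Wdfy3, the large scaffold ALFY that gathers aggregates (chromosome 5, 101832956 to 102069921, minus strand), had a fold of 30.5 in the replicated list, the highest there in the first 3 kb of the 40 genes and above 97.6% of coding genes with a peak. In the list of replicate 2 Uvrag was higher, with 40.6 against 36.7. Its first 3 kb were covered over 2324 bp in replicate 1 and 2343 bp in replicate 2, and 107737 bp of the gene (45.5%) lay under the replicated list. Replicate 1 covered 90104 bp and replicate 2 covered 109279 bp of it. The replicates thus lay nearer to each other along Wdfy3 than along Uvrag, a gene of like length. Optn, the receptor for bacteria and mitochondria, had 0 bp in replicate 1 and 2665 bp in replicate 2, with 2525 bp under the pooled list and none under the replicated one. Calcoco1, reported as a receptor for endoplasmic reticulum in human cells, had no base in any list. It was 1 of 4 autophagy genes without any, with Wipi1, Atg10 and Map1lc3a, which is 10.0% of the 40 beside 60.1% of coding genes.

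The 28 marked genes had folds from 4.26 to 30.5 with a median of 13.0, against a median of 11.9 over marked coding genes. By group the medians were 11.9 for initiation, 12.2 for lipidation and 26.8 for cargo receptor genes. The 4 cargo receptor genes ranged from 19.6 to 30.5. Their range overlaps those of the initiation genes, 4.26 to 28.8, and of the lipidation genes, 4.27 to 26.1, and no test was made over so few genes. Fold is the authors' value per peak, and how it was normalized is not stated. Levels of fold are therefore set side by side between lists, without a reading of their difference.

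**Figure D3:**
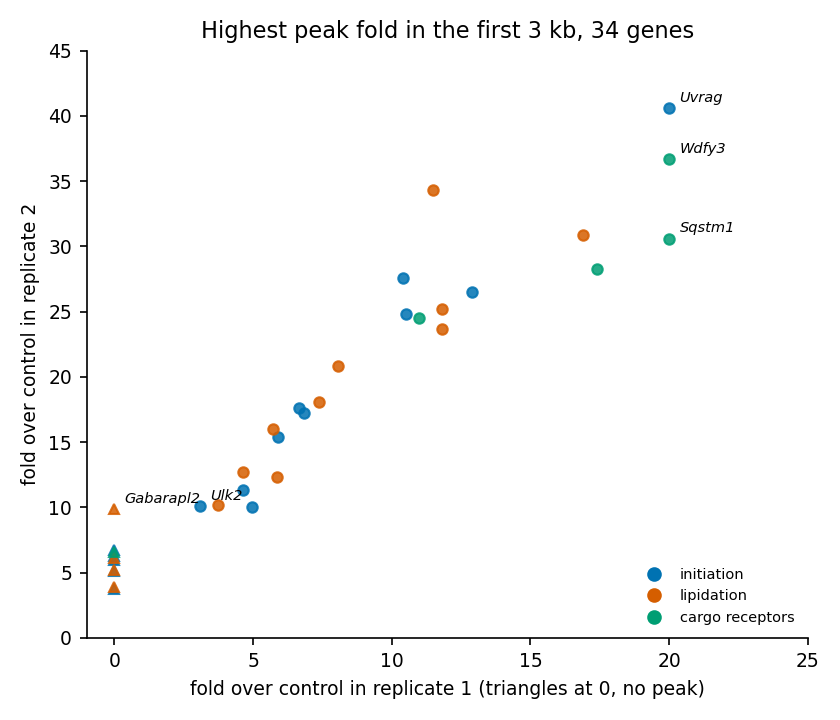
Highest peak fold over the control in the first 3 kb of 34 autophagy genes, in replicate 1 (horizontal axis) and replicate 2 (vertical axis). Circles are the 24 genes with a peak in both replicates, and triangles at 0 are the 10 with a peak in replicate 2 alone, all of which sit at 9.87 or lower in replicate 2.

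The replicates differed in how much was called and in fold. All 24 genes with a peak in both had a higher fold in replicate 2. The ratio of replicate 2 to replicate 1 was 1.53 to 3.30, with a median of 2.39, and its median over coding genes with both was 2.11. How fold was normalized is not stated, so the ratio is a description. Across the 24 genes with a peak in both, the order by fold was much the same, with a Spearman rho of 0.939 between the replicates. These points share the named control, and the value is a description. The 10 genes with a peak in replicate 2 alone had replicate 2 folds of 3.76 to 9.87, with a median of 6.03, and the 24 with a peak in both had 10.0 to 40.6, with a median of 22.3. The ranges did not overlap. Over coding genes the medians were 5.02 for 1860 genes and 17.2 for 6018 genes, and their ranges between the 5th and 95th percentiles, 2.99 to 12.6 and 6.27 to 35.0, did overlap.

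By bases, nearly all of replicate 1 lay within replicate 2. Of the 293519 bp that replicate 1 covered in the 40 genes, 99.9% were also under replicate 2, and these made up 44.3% of the 661910 bp of replicate 2. Over all coding genes the shares were 99.3% and 55.5%. The shared bases were 32.1% of replicate 2's bases in initiation genes, 43.5% in lipidation genes and 75.0% in cargo receptor genes. These sums rest on few long genes: Uvrag and Wdfy3 together held 46.2% of all bases of the 40 genes under the replicated list, 1 in the initiation group and 1 in the cargo receptor group. Gene by gene, replicate 1's bases were 17.8% to 96.4% of replicate 2's, with a median of 53.2% over 27 genes.

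**Figure D4:**
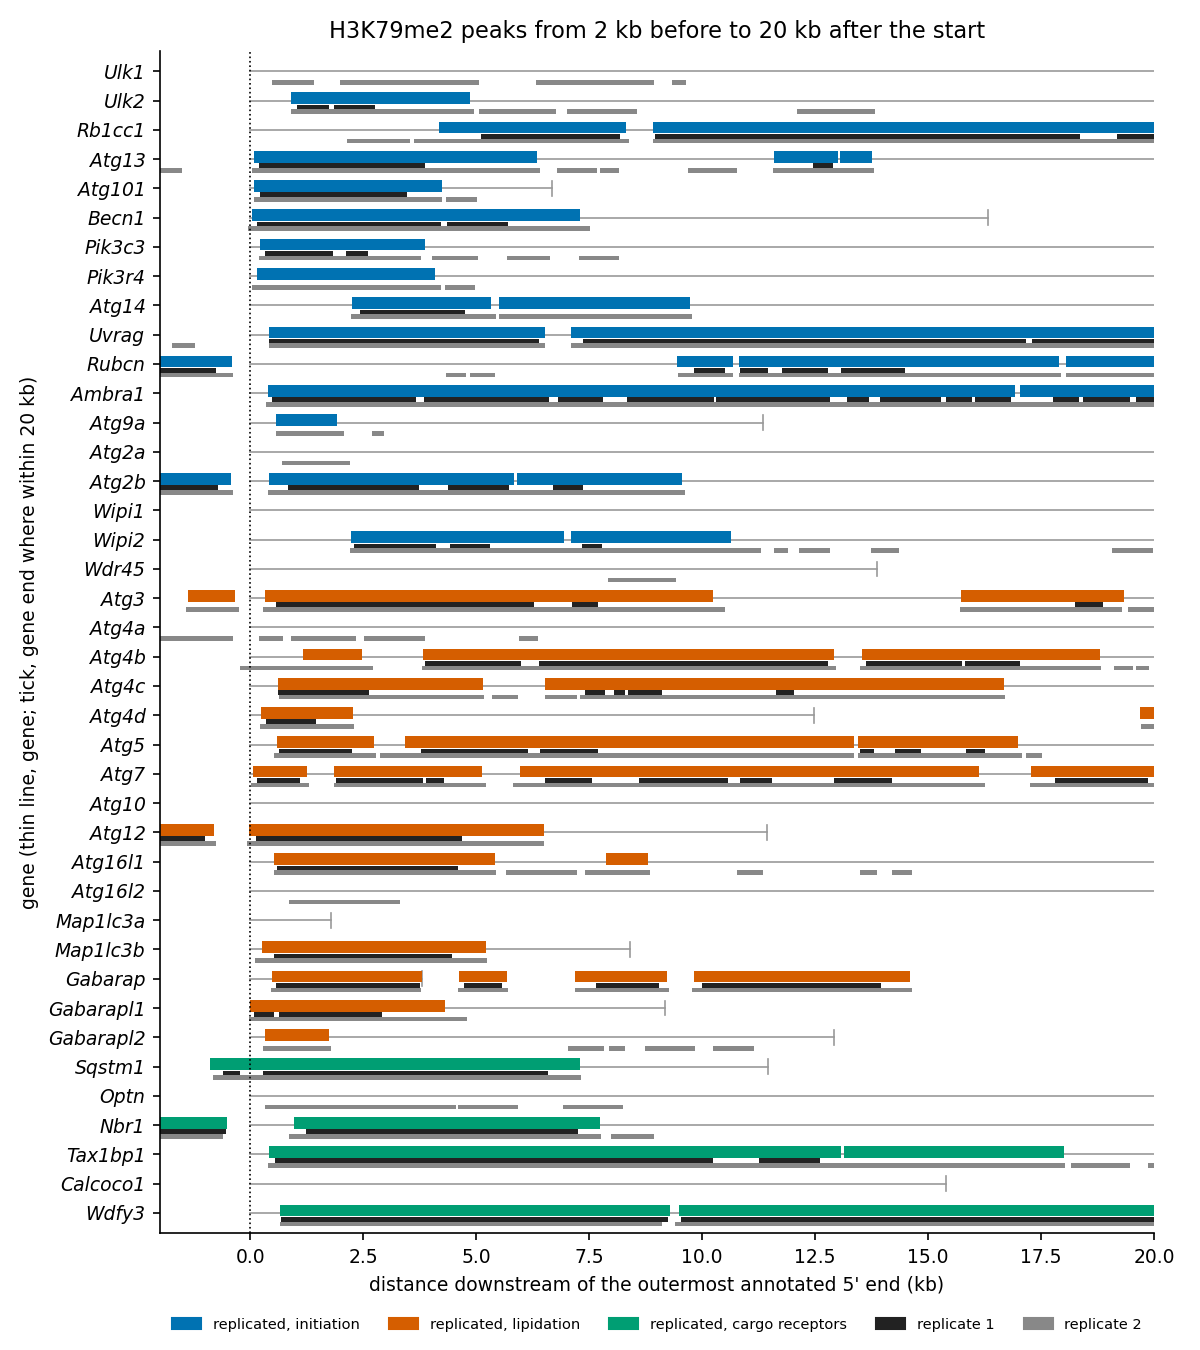
Peaks from 2 kb before to 20 kb after the outermost annotated 5′ end (horizontal axis, kb) of the autophagy genes (rows), with the replicated list as coloured bars and the lists of replicate 1 and replicate 2 as black and grey bars beneath. In 25 of the 28 marked genes the first coloured bar within the gene begins after the dotted line, and in Atg12, Gabarapl1 and Sqstm1 a coloured bar crosses it; bars left of the line or beyond a gene's end mark lie outside that gene.

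Peaks of the replicated list began downstream of most starts. Among the 28 marked genes the first covered base lay at a median of 399 bp from the outermost 5′ end, within a range of 0 to 2254 bp. In 3 genes, Atg12, Gabarapl1 and Sqstm1, the first base itself was covered, as it was in replicate 2 but not in replicate 1, and 6 marked genes had a covered base in the 1 kb upstream. For 5 of these, Atg2b, Atg3, Atg12, Sqstm1 and Nbr1, a marked gene starts within 1 kb on the other strand, and the remaining one, Gabarapl1, had 9 bp. In all, 9 autophagy genes have an opposite start within 1 kb. Unmarked Ankzf1, 45 bp inside Atg9a, and unmarked Psmd10, 179 bp from Atg4a, are examples without a replicated peak. Another coding gene overlaps 10 of the 40, and covered bases lay in the shared stretch for 3 of them: 1335 bp that Becn1 shares with Cntd1, 1317 bp of Atg4b and the entire Map1lc3b block.

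Within the genes the replicated list made 65 blocks. A single block was found in 14 genes and several in 16. Of the blocks 49 had under 10% exonic bases, and 5.74% of all covered bases were exonic, so coverage lay chiefly over introns. The exonic share of the genes themselves was not computed, so a preference of the peaks for introns was not tested. Uvrag and Wdfy3, which held 46.2% of the covered bases, had no block above 2.65% and 2.52% exonic. Map1lc3b was at the other end, with 92.3% of its 4944 bp block annotated as exonic. In 11 of the 16 genes with several blocks the first had the highest fold. All 65 blocks had bases under replicate 2, and 12 had none under replicate 1. Blocks were not counted over all coding genes, so these counts describe the autophagy genes alone. Longer marked genes had more covered bases, with a Spearman rho of 0.664 over the 28 marked autophagy genes and 0.645 over marked coding genes, given as descriptions.

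**Figure D5:**
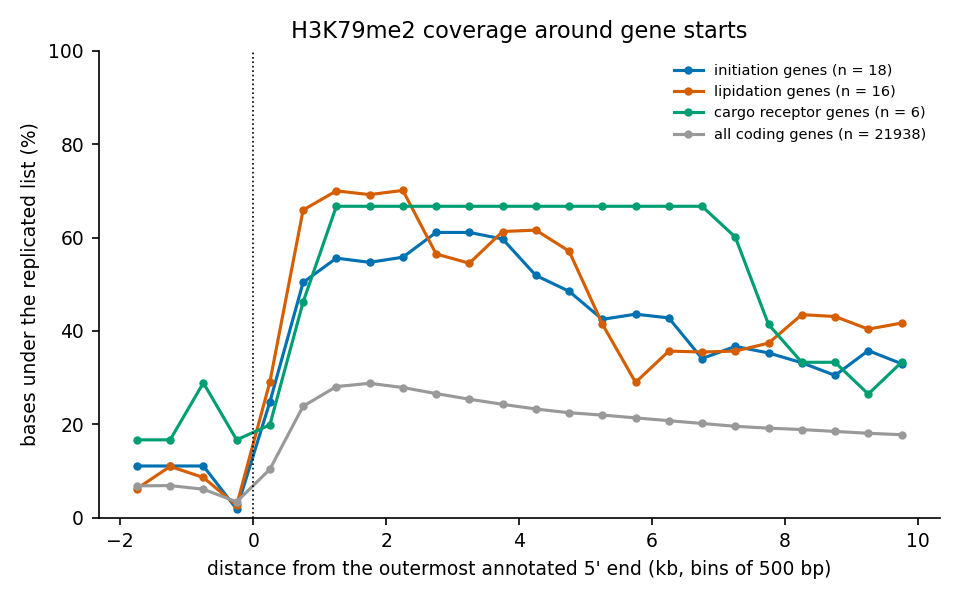
Percent of bases under the replicated list (vertical axis) in bins of 500 bp from 2 kb before to 10 kb after the outermost annotated 5′ end (horizontal axis), for the 18 initiation, 16 lipidation and 6 cargo receptor genes and all 21938 coding genes. The lines of the autophagy groups rise after the start, to 55.6%, 70.0% and 66.7% in the bin from 1000 to 1500 bp, against 28.1% for coding genes.

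Averaged over genes, coverage under the replicated list was low before the start and rose over the first 1 kb after it. In the 500 bp before the start 4.42% of the bases of the 40 genes were covered, and 3.43% over coding genes. In the first 500 bp the values were 25.8% and 10.4%, and from 1000 to 1500 bp they were 63.0% and 28.1%. The autophagy genes stayed near that level to 4 kb, and the profile then fell, to 36.0% and 17.8% in the last 500 bp before 10 kb. Cargo receptor genes stayed at 66.7% between 5000 and 5500 bp, where initiation genes were at 42.5% and lipidation genes at 41.5%; with 6 genes this value is 4 genes covered over the entire bin.

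The RefSeq promoter table held 38 promoters of 33 autophagy genes, and 20150 promoters of coding genes in all. Within the 250 bases upstream the autophagy promoters had 3 to 43 CG, with a median of 15.0 against 10.0 over all. Sqstm1 had 14, Gabarap 6, Map1lc3b 30, Atg3 21, Ulk2 31 and Ulk1 20, so unmarked Ulk1 had more CG than marked Sqstm1 and Gabarap. From the RefSeq start the first covered base lay 246 bp downstream at Gabarap, 184 bp at Map1lc3b, 279 bp at Atg3 and 915 bp at Ulk2. Of the 8 printed stretches, that of Sqstm1 lay wholly under a replicated peak and the other 7 lay outside any.

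Motifs were searched on both strands of each promoter from 250 bases before to 50 after the RefSeq start. CACGTG, the E-box read by Tfeb and related factors, was found in 5 of the 38 autophagy promoters (13.2%), against 8.03% of all promoters. They were those of Atg14, Atg5, Atg7, Atg3 and the inner start of Rubcn. The longer TCACGTGA, which contains CACGTG and is the core of the lysosomal gene element CLEAR, was found in 1 (2.63%), at position -72 of Atg3, against 1.26% of all. GTAAACA, the letters bound by FOXO factors, was in none of the 38 and in 2.96% of all promoters. From the RefSeq starts of these promoters, Atg14, Atg5, Atg3 and the inner start of Rubcn had 2144 to 2961 bp covered in the next 3 kb. Atg7, whose RefSeq start lies 27999 bp inside the gene, had 0. Of all autophagy genes with a RefSeq start 23 of 33 (69.7%) were marked from it, beside 34.1% of coding genes. A link between motif and peak was not tested.

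Around the 40 genes stand other genes of the pathway, 49 of which were listed by role. Of these 42 (85.7%) were marked in the replicated list, 41 in replicate 1 and 46 in replicate 2. Over all coding genes the shares were 30.3%, 27.2% and 35.6%. A CpG-rich start was found in 43 of the 49 (87.8%), beside 75.0% of the autophagy genes. Of coding genes with such a start 54.1% were marked in the replicated list. Of the upstream regulators 15 of 18 were marked. Rptor, the subunit that links mTOR to its substrates, had 96589 bp under the replicated list, 25022 bp in replicate 1 and 113063 bp in replicate 2. The lysosomal transcription factor genes Mitf and Tfeb had 80897 and 38398 bp under the replicated list. Replicate 1 covered 33105 bp of Mitf and replicate 2 covered 138065 bp, and for Tfeb the values were 21225 and 43860 bp. Mlst8, an mTOR subunit, had 942 bp under the pooled list and none under the replicated one, and Tsc2 and Prkaa2, a member of the complex that restrains mTOR and a catalytic subunit of the energy sensor AMPK, had none in any list. Of the genes for membrane remodelling and fusion with the lysosome 18 of 19 were marked. Plekhm1, an adaptor for that fusion, had 43093 bp or 89.0% of its length covered. Stx17, the autophagosome SNARE, was the unmarked one, with 0 bp in replicate 1 and 1232 bp in replicate 2. The third group, receptors for mitochondria and other organelles, stood at 9 of 12. The shares were thus 83.3% for regulators, 94.7% for fusion genes and 75.0% for organelle receptors beside 66.7% to 75.0% for the 3 autophagy groups, and no test was made of the differences.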

How the data were processed

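H3K79me2 ChIP-seq peaks of 2 biological replicates of unstimulated bone-marrow-derived macrophages were analysed. Per the deposited text notes, 4 lists on mm10 were made: 1 per replicate, 1 from pooled alignments and 1 replicated list from both. Aligner, caller, its thresholds and how a replicated peak was defined were not given in the sources used here. The fold of each peak over the control is a ratio that the authors computed, and it was used to describe, order or select the peaks of each list. The deposited −log10 q values of the authors were used for the filter at 0.05. The deposited score, a display value of at most 1000, and the −log10 p were not used.

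Peaks were merged within each list and counted base by base against GENCODE M21 (GRCm38.p6) with python 3.11.15, numpy 2.4.6 and pysam 0.24.0. Promoters came from a RefSeq table of GRCm38.p6 that matched 33 of the 40 genes; Rb1cc1, Becn1, Pik3c3, Atg12, Atg16l1, Map1lc3a and Wdfy3 did not match. The percentile of a fold is the share of the 6726 coding genes with a replicated peak in the window that had a lower one. No test was run over genes, since 1 group of 2 replicates gives no comparison of groups. The code was tested on simulated data: 200 of 200 genes given a peak were marked, and covered bases of 1208 of 1208 genes on chromosome 1 equalled a count over single bases.

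The 40 genes and the lists of other pathway genes and markers were chosen with earlier results of these data known. All 40 are named, with the 5 other pathway genes with the most covered bases, every unmarked one of them, and coding genes that overlap an autophagy gene or start within 1 kb on the other strand; some of these genes and of the markers are not reported here. The marking counts were repeated with 12 alternatives of minimum, fold, q, list, window, start and overlap, and with the RefSeq start, which was added after seeing the data.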

Additional observations from a re-analysis of the deposited data

How the results depend on the processing

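All counts of marked autophagy genes stayed within 1.5 times the reported ones under 13 alternatives each. Over all 40 genes, against 28 reported, the lowest count was 22, with only peaks at or above the median fold. The first 1 kb gave 23, and the highest count was 34, without replicate 1. Of the 30 genes that overlap no other coding gene 21 were marked (70.0%), the same share as reported for all 40. Leaving out 1 replicate gave 24 and 34 of the 40, 10 and 15 initiation, 10 and 14 lipidation, and 4 and 5 cargo receptor genes, with 5975 and 7808 coding genes. Dropping peaks below the list's median fold, 7.37, removed Atg4b, Atg4d, Atg9a, Gabarapl2, Pik3r4 and Ulk2. The RefSeq start, an alternative chosen after seeing the data, gave 23 of 33 (69.7%), with Rubcn gained and Atg7 lost. From that start 34.1% of coding genes with one were marked. No paired analysis was possible because the 2 replicates form 1 group. Of 320 values of covered bases of single genes under 8 alternatives, 100 moved by more than the replicates' SD. This count is partly fixed by design. A window of 1 kb or 5 kb must move a well covered gene, as at Atg12, with 1000 and 5000 bp against 3000 bp. The settings that leave out a replicate use the same values that set the SD. The median share of the gene covered ranged from 7.22% without replicate 2 to 25.7% without replicate 1. Depth is unknown, so genes without a peak may carry the modification below what was called.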

Other observations

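Receptors that send whole organelles to autophagy were listed apart from the 6 cargo receptor genes. Of these 12, 9 were marked in the replicated list, 8 in replicate 1 and 11 in replicate 2. Over all coding genes 30.3%, 27.2% and 35.6% were marked in these lists. Retreg1, a receptor for endoplasmic reticulum, had 94877 bp or 72.7% of its length covered, which replicate 1 covered over 41812 bp and replicate 2 over 108052 bp. Pink1, a kinase gene of mitochondrial quality control, had 1293 bp covered in the first 3 kb in replicate 2 and none in replicate 1. Fundc1, an X-linked mitochondrial receptor, had 0 bp in replicate 1, 1671 bp in replicate 2 and 0 in the replicated list.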
